A study of Rattus norvegicus with 113 samples.

Results

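The cortex of sham-operated rats was compared with the cortex of naive rats 24 hr after surgery, which measures what anaesthesia and surgery did to cortical messenger RNA without the fluid percussion pulse. The comparison rests on 8 of the 113 arrays of the series, chosen by their titles: 4 arrays of sham cortex and 4 arrays of naive cortex, each from 1 adult male Sprague-Dawley rat. Naive rats received no anesthesia and were left unhandled. Sham rats were anaesthetised with isoflurane, intubated and ventilated, the scalp was cut, a hole was drilled through the skull over the exposed dura and a hub was cemented over it, and after the sham injury they went back on isoflurane, were given a local anaesthetic at the wound and recovered. Skin incision, drilling, adhesive, ventilation, isoflurane and handling therefore differ together between the groups and cannot be told apart. The tissue was a small piece of cortex near the injury site. The 4 TBI arrays of the same interval, from rats that had the same surgery and then the injury, entered the fit only to share the estimate of the spread.

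Surgery near the brain reaches it along several routes. Opened skin and bone release cytokines into blood and cerebrospinal fluid. Astrocytes and vessel cells respond to cytokines by switching on acute phase and matrix genes, a state called reactive astrogliosis. Volatile anaesthetics act on inhibitory glycine and GABA receptors and on several potassium channels, and surgical stress raises glucocorticoids, which act through a nuclear receptor on genes such as Fkbp5.

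All 8 arrays lay on 1 slide, the 4 naive arrays in its first row and the 4 sham arrays in its second, so that row and group cannot be told apart. TBI arrays were on another slide. Between 52.2% and 59.5% of probes were well above background in a naive array and between 53.6% and 56.4% in a sham array, and no spot was saturated. Of 18 genes that mark cortical layers and are on the array, 17 were well above background in all 4 naive or all 4 sham arrays. Markers of tissue outside the cortex were measured as well: 9 of 11 hippocampal, 13 of 15 striatal, 16 of 18 meningeal and 6 of 15 choroid plexus genes passed the same filter. Sham replicates 2 and 4 stood apart from the other 2 sham arrays in several gene lists, described beside those lists. The choroid plexus gene Ttr, which encodes transthyretin, varied from 1.43 to 6.69 on the log2 scale among the naive arrays alone.

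Values are log2 signals relative to the median of the array, and every difference is sham minus naive on that log2 scale unless the 75th percentile is named. The 75th percentile of an array lay 3.68 to 3.78 log2 units above its median in naive arrays and 3.48 to 3.59 in sham arrays, and the ranges did not overlap. Scaling to the 75th percentile therefore added 0.18 to every difference. The median difference of the 11086 tested genes was -0.21 by the median and -0.03 by the 75th percentile, so falls are numerous under the first scaling and much fewer under the second. By the median, 4584 of 23816 tested probes passed an adjusted p of 0.05 in limma, 227 higher in sham (0.953% of tested probes) and 4357 lower (18.3%). By the 75th percentile 414 passed, 162 higher (0.68%) and 252 lower (1.06%). Both scalings called 138 probes higher (0.579%) and 252 lower (1.06%), or 37 genes higher (0.334% of tested genes) and 122 genes lower (1.1%). Per gene, the median alone called 73 higher (0.658%) and 2149 lower (19.4%), and the 75th percentile 48 higher (0.433%) and 122 lower. Groups of arrays did not overlap in 156 genes higher (1.41%) and 3165 lower (28.5%) by the median, and in 670 higher (6.04%) and 1525 lower (13.8%) by the 75th percentile.

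The calls by the 75th percentile lay close to the threshold. Of its 414 called probes, 362 had an adjusted p above 0.04, and leaving out any single array of the 8 left between 0 and 46 called probes. Of the 159 genes called by both scalings, between 145 and 150 kept their call by the median without any single array, and between 0 and 16 by the 75th percentile.

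**Figure D1:**
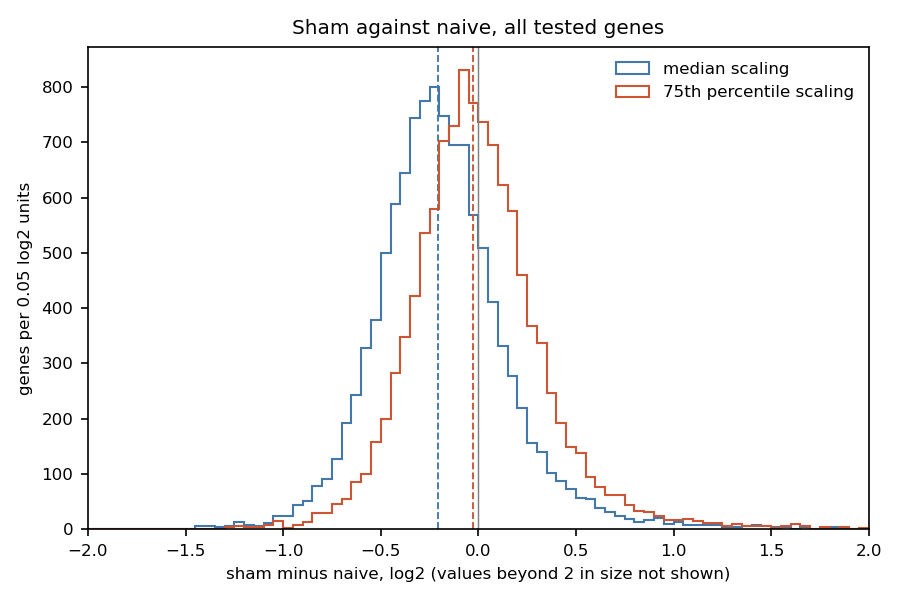
Histogram of the sham minus naive difference of the 11086 tested genes, on the log2 scale (x axis) against genes per bin (y axis), under median scaling (blue) and 75th percentile scaling (orange), with dashed lines at the medians of -0.21 and -0.03. The whole distribution sits 0.18 lower under median scaling.

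Secreted acute phase proteins, a lipocalin and the matrix regulator Timp1 were among the genes with the largest rises in sham cortex. Serpina3n is a secreted serine protease inhibitor of the acute phase that reactive astrocytes make. Serpina3n was at 1.81, 5.11, 1.32 and 4.80 in sham replicates 1 to 4, and below background in every naive array, with values from -3.72 to -2.26. It was thus at least 30.9-fold higher in sham (adjusted p = 0.00613 by the median and 0.0171 by the 75th percentile). This lower bound sets the sham mean against the dimmest signal that still counts as well above background, or the probe's own signal where higher. Lcn2, the iron-scavenging lipocalin of the acute phase made by neutrophils and astrocytes, was measured above background everywhere. Its values were between 0.60 and 1.45 in naive arrays, and were 4.49, 7.34, 2.54 and 6.69 in sham replicates 1 to 4, a rise of 4.18 ± 0.82 (SE). Timp1, an inhibitor of matrix metalloproteinases, was tight in naive cortex at 3.21 ± 0.08 (SD, n = 4) and spread in sham cortex at 4.45, 8.75, 5.18 and 7.16, a rise of 3.18 ± 0.71 (SE). In all 3 genes no sham array fell within the naive range, which the rule that chose them required. Sham replicates 2 and 4 were the highest in all 3.

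The 3 kininogen genes on the array, which encode precursors of bradykinin and, in the rat, the acute phase T-kininogens, rose together. Kng2l1 was at 0.58, 5.28, 2.80 and 2.82 in the sham arrays and below background in all naive arrays, at least 25.1-fold higher in sham. Bounds for Kng1 and Kng2 were 23.4-fold and 15.8-fold, and the second probe of Kng1 was called as well (adjusted p = 0.0107 by the median). The kininogen genes are near-identical copies whose probes may share targets, so the rise cannot be assigned to a single member. Their order among sham arrays differed from that of Serpina3n, with replicate 1 the lowest and replicates 3 and 4 close to each other.

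Lbp, the plasma protein that carries bacterial lipopolysaccharide to its receptor, rose by 3.94 ± 0.76, and was well above background in 2 of 4 naive and all 4 sham arrays. Inmt, an N-methyltransferase of indoleamines, rose by 3.58 ± 0.69. Cyp1b1, a cytochrome P450 that is made in vessel-associated cells, stood at -2.22, -0.50, -1.30 and -0.36 in naive arrays and at 1.99, 1.18, 0.01 and 0.96 in sham arrays. For Cyp1b1 the highest sham array was replicate 1, which was among the lower sham arrays for Lcn2 and Timp1. The gelatinase Mmp9 rose by 1.16 ± 0.23, the stromal metalloproteinase Mmp19 by 1.69 ± 0.37 and the calcium-binding protein S100a6 by 1.69 ± 0.35. Mmp19 was well above background in 2 of 4 naive arrays, and Inmt and Cyp1b1 in 3 of 4, so their sizes rest partly on signal near background. Pla1a, a phospholipase that releases lysophosphatidylserine, rose by 1.84 ± 0.40, and its second probe by 2.05.

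Ptgs2, the inducible cyclooxygenase that makes prostaglandin precursors, was at -0.83, -0.24, 0.04 and -0.02 in naive arrays and at 2.14, 0.34, 1.07 and 1.13 in sham arrays, a rise of 1.43 ± 0.37. Its groups did not overlap, which the rule that chose it required, and it was well above background in 3 of 4 naive arrays. As for Cyp1b1, the highest value was that of replicate 1. Angpt2, a vessel-destabilising ligand of the Tie2 receptor, rose by 0.99 ± 0.25. The zinc finger gene Zfp483 rose by 1.45 and the neuronal glycine transporter gene Slc6a5 by 1.16, both from naive levels that were below background in 1 or more arrays. By the median, Ptgs2 lost its call without naive replicate 1 or sham replicate 4, Angpt2 without naive replicate 2 or sham replicate 4, and Slc6a5 without sham replicate 2. TBI arrays, on their other slide, averaged 7.08 for Serpina3n, 8.47 for Lcn2, 8.03 for Timp1, 1.75 for Lbp, 0.69 for Cyp1b1 and 1.29 for Ptgs2.

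**Figure D2:**
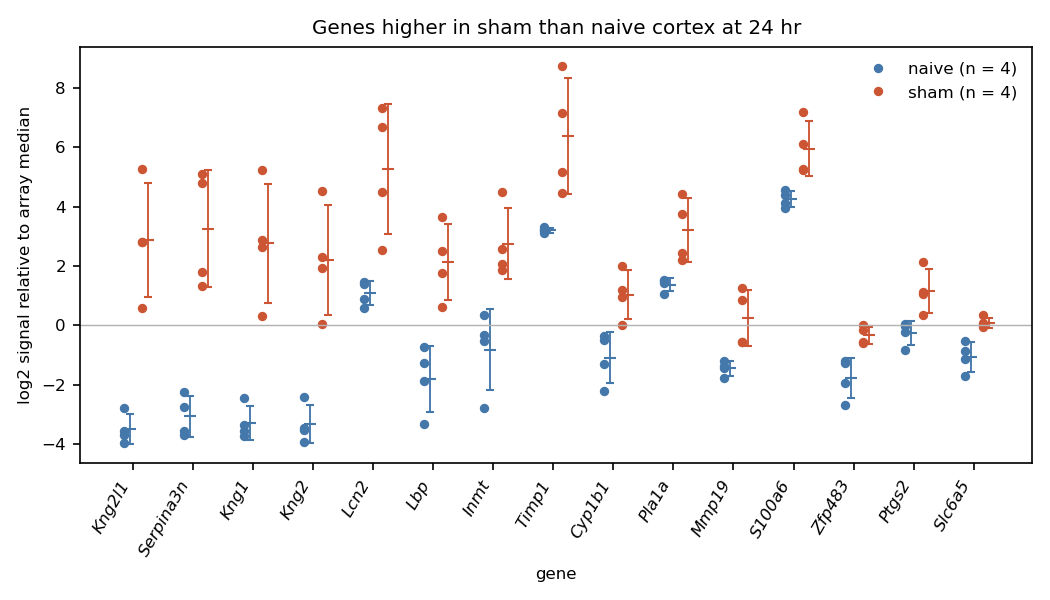
Log2 signal relative to the array median (y axis) of the 15 genes with the largest rise among those called by both scalings with groups that do not overlap (x axis), for 4 naive (blue) and 4 sham (orange) arrays, with mean and SD beside the points. The naive arrays of Timp1 lie within 3.11 to 3.31 while its sham arrays span 4.45 to 8.75.

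Promoter bases upstream of 4 of these genes are shown because these genes carry the acute phase, matrix and prostaglandin results, from RefSeq on build GRCr8, 130 bases each, ending just before the annotated start site. Capitals mark matches on either strand to any of the motifs searched: the glucocorticoid response element and its left part, the cAMP response element TGACGTCA, the E-box CACGTG, the D-box TTATGNAA, the heat shock element and the STAT-type element TTCNNNGAA. The part of the glucocorticoid element lies within the whole element, and the STAT-type element was added after the values were seen.
Serpina3n, chr6:129088262-129088391, plus strand: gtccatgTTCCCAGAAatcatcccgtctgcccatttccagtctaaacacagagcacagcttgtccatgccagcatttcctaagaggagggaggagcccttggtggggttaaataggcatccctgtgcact
Lcn2, chr3:36081781-36081910, minus strand: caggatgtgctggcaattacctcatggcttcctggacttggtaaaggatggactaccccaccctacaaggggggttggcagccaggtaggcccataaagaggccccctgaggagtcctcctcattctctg
Timp1, chrX:3771123-3771252, minus strand: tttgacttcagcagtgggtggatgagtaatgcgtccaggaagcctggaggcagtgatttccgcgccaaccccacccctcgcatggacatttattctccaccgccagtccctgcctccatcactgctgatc
Ptgs2, chr13:64713933-64714062, plus strand: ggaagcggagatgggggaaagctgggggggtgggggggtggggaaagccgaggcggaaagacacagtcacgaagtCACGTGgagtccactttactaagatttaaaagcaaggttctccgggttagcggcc

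Serpina3n held a STAT-type element that starts 123 bases before the start site, and Ptgs2 an E-box in the bases shown. Over windows of 250 bases before to 50 after the start, 26 of the 37 genes called higher and 106 of the 122 called lower had a promoter sequence. Shares are also given for the 9064 tested genes with a promoter sequence and for all 27457 promoters. A STAT-type element was present in 3 of 26, 7 of 106 (6.6%), 6.75% of tested genes and 8.68% of all promoters. An E-box was present in 1 of 26 (3.85%), 7 of 106 (6.6%), 9.32% of tested genes and 6.65% of all promoters. A D-box was present in 1 of 26, 1 of 106 (0.943%), 1.7% of tested genes and 3.54% of all promoters. The cAMP response element was present in 0 of 26, 3 of 106 (2.83%), 3.21% of tested genes and 1.91% of all promoters. The whole glucocorticoid element and the heat shock element matched in no called gene. They matched in 0% and 0.463% of tested genes and in 0.00728% and 0.736% of all promoters. The shorter part of the glucocorticoid element matched in 0 of 26, 2 of 106 (1.89%), 0.254% of tested genes and 0.426% of all promoters.

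Reactive astrocytes gave the list with the most members called higher. Of 20 tested members of 24 on the array, 8 were called higher by the median (0.658% of tested genes were) and 3 by both scalings, 0 were called lower, and 19 lay above the median of all tested genes. The median of the list was 1.08 above that of all tested genes. Besides Serpina3n, Lcn2 and Timp1, the members called by the median alone were Gfap, Vim, Aspg, Hspb1 and Cp, and these, like other genes named below outside the rule, were chosen after their values were seen. Gfap, the intermediate filament of astrocytes, was at 6.83, 5.57, 4.69 and 4.34 in naive arrays and at 6.34, 7.29, 7.44 and 8.15 in sham arrays, a rise of 1.95 ± 0.51 (adjusted p = 0.0227 by the median and 0.0557 by the 75th percentile). The Gfap ranges overlapped through naive replicate 1. Vim, another intermediate filament, rose by 1.11 ± 0.32, and the small heat shock protein Hspb1 by 2.33 ± 0.76. Ceruloplasmin, Cp, rose by 1.64 ± 0.41 and by 2.11 on its second probe. Several of these calls depend on single arrays: with each of the 8 arrays left out in turn, Gfap kept its call by the median in 5 cases (lost without naive replicates 3 or 4 or sham replicate 4) and Vim in 3. Hspb1 and Aspg kept theirs only without sham replicates 1 or 3, the differences of Hspb1 running from 1.60 to 2.98, and Cp lost its call without naive replicate 2.

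The 4 sham rats were not alike in these genes. The level of the reactive astrocyte list, taken per array as the median over members after 75th percentile scaling with the naive mean set to 0, was 0.37, 1.82, 0.36 and 1.59 in sham replicates 1 to 4 and ran from -0.16 to 0.14 in naive arrays. Replicates 2 and 4 were the 2 highest sham arrays in 18 of 20 members (90%), against 17.4% of all tested genes. The same pair was highest in 16 of 19 acute phase and complement genes, 14 of 17 cell proliferation genes, 27 of 40 ribosomal protein genes and 0 of 30 neuron and synapse genes. In the level of the neuron and synapse list these 2 arrays were instead the lowest of the 4 sham arrays. Without these 2 arrays, 66 probes were called by the median and 32 by the 75th percentile, an alternative chosen after seeing the data. Serpina3n then kept its call under both scalings, with an adjusted p of 0.000743 by the median, and 11 of the 159 genes called by both scalings kept theirs by the median. The differences of Lcn2 and Timp1 were then 2.43 (adjusted p = 0.0601) and 1.61 (0.0554), and that of Gfap 1.53 (0.159), while Kng2l1 had an adjusted p of 0.0554. Ptgs2, in which these 2 arrays were not the highest pair, lost its call in that smaller fit as well, at a difference of 1.87. So did Map2, which was lower in sham and lowest in these 2 arrays, at a difference of -0.89.

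Acute phase and complement genes were measured for 19 of 24 members, of which 5 were called higher and 1 lower by the median and 2 higher by both scalings. Of all tested genes 0.658% were called higher and 19.4% lower by the median, and 0.334% higher by both scalings. The median of the list was 0.78 above all tested genes. Complement components of the classical pathway rose by the median alone, C1s by 0.97 ± 0.26 and C1r by 0.88 ± 0.26, and C3 differed by 0.67 ± 0.43 (adjusted p = 0.29). Of the 8 fits without a single array, C1s kept its call in 3 and C1r in 2. A2m, the broad protease inhibitor alpha-2-macroglobulin, was at 2.02, 4.71, 3.09 and 4.68 in sham arrays against 2.06 to 2.64 in naive arrays, and its difference of 1.23 missed the threshold (adjusted p = 0.0928). Socs3, the feedback inhibitor of cytokine receptors, stood at 1.51, 4.04, 1.69 and 3.67 in sham arrays against 1.00 to 1.41 in naive arrays. Its groups did not overlap, yet its adjusted p was 0.179. The spread in the fit is shared with the TBI arrays, and the SD of Socs3 was 0.18 in naive, 1.31 in sham and 1.64 in TBI arrays.

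Cytokine, chemokine and adhesion genes were mostly dim. Of 27 members on the array 15 were tested, 1 of which (Ptgs2) was called higher by both scalings (0.334% of all tested genes were). The list lay 0.44 above all tested genes. Its level per array was -0.02, 0.76, -0.03 and 0.71 in sham replicates 1 to 4. Ccl7, a monocyte chemoattractant, was at -0.37, 2.10, -0.91 and 2.80 in sham arrays and between -1.15 and -0.48 in naive arrays, a difference of 1.59 ± 1.08 that did not pass. Ccl2, a close relative, missed the detection filter with 3 of 4 arrays above background in each group, and its sham values of -0.93, 2.34, -0.42 and 3.37 show the same pair of high arrays. Il1b was above background in 1 naive and 2 sham arrays, and Il6 in none of the 8. The chemokine Cxcl13 (a rise of 2.12 ± 0.65) and the interferon-inducible Ifitm1 (1.88 ± 0.50), which are on none of the lists, were called by the median alone, and kept the call in 2 and 5 of the 8 fits without a single array. Interferon response genes had 21 members tested, 0 called higher and 1 called lower by the median (0.658% and 19.4% of all tested genes were). Ifit2 was at a difference of 0.09 and Ifit3 at 0.35.

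Leukocyte markers gave counts that depend on few genes. Of 13 neutrophil markers on the array 6 were tested, with 2 called higher by both scalings, Lcn2 and Mmp9, both of which other cells also make, and 1 called lower by the median alone, Prtn3, a granule protease (by both scalings 0.334% of all tested genes were called higher, and by the median 19.4% lower). The calgranulins S100a8 and S100a9, which neutrophils hold in quantity, were in sham arrays at -0.61, 2.06, -0.21 and 3.31 and at 1.84, 3.90, 1.79 and 4.95, with differences of 1.16 (adjusted p = 0.457) and 1.34 (adjusted p = 0.265). Microglia and macrophage genes had 25 members tested, 2 called higher and 4 lower by the median and 0 by the 75th percentile, against 0.658% and 19.4% of all tested genes. Spp1, a secreted phosphoprotein of activated macrophages, and Lgals3, a galectin, rose by 3.79 ± 1.13 and 2.25 ± 0.65 by the median, and both kept the call in 2 of the 8 fits without a single array. Spp1 was well above background in 2 of 4 naive arrays. The homeostatic microglial genes Cx3cr1, Ctss and Trem2 fell by 0.44, 0.78 and 0.56 by the median, Trem2 in 3 of those 8 fits. Spp1 was at 0.77, 4.60, -0.40 and 4.86 in sham replicates 1 to 4. Cd14, the lipopolysaccharide co-receptor, differed by 1.58 (adjusted p = 0.123), Cd68 by 0.67 and Aif1 by 0.04, none of which passed. T cell markers had 5 of 16 tested, with 1 called lower by the median and 0 by the 75th percentile, and Cd3d differed by 0.23 and Cd4, which rat microglia also carry, by -0.59. In bulk tissue fewer cells of a type and less RNA per cell cannot be told apart, which holds for every cell type named here.

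Matrix and wound repair genes lay 0.85 above all tested genes, with 5 of 25 tested members called higher by the median, 2 by both scalings and 0 lower. Of all tested genes 0.658% were called higher by the median, 0.334% higher by both scalings and 19.4% lower by the median. Annexins Anxa1 and Anxa2, which bind membrane phospholipids, rose by 1.51 ± 0.47 and 1.20 ± 0.38 by the median. Each kept its call only without sham replicates 1 or 3 among the 8 fits without a single array. Stromelysin-1, Mmp3, differed by 2.22 ± 0.75 (adjusted p = 0.0551) and the collagen gene Col3a1 by 1.39 ± 0.57 (adjusted p = 0.103), with groups that did not overlap in either. Mmp3 was well above background in 2 of 4 naive arrays.

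Markers of tissue that surrounds the cortex were set beside these lists. By the median 0.658% of all tested genes were called higher and 19.4% lower. All 16 tested meningeal genes lay above the median of all tested genes, by 0.35 to 2.09, with none called, and Dcn and Lum, matrix proteoglycans, differed by 0.56 and 0.47. The level of the meningeal list was 0.28, 1.46, 0.42 and 0.43 in sham arrays and -0.04, -0.67, 0.25 and 0.52 in naive arrays, so that only sham replicate 2 lay outside the naive range. All 8 tested blood genes lay above the median of all tested genes, with none called, and the list was at -0.06, 1.24, 0.57 and 0.13 in sham arrays against -0.23 to 0.31 in naive arrays. The haemoglobin genes Hba-a1 and Hba-a2 differed by 0.07 and 0.29. Slc6a20a, an amino acid transporter of the meninges and choroid plexus, was at 5.49, 7.75, 5.67 and 6.19 in sham arrays against 3.54 to 4.81 in naive arrays, and its difference of 1.88 missed the threshold (adjusted p = 0.0706), although its second probe passed at 2.27 (adjusted p = 0.0245). The water channel gene Aqp1 was at 5.71 in sham replicate 2 and at 2.53, 2.84 and 3.40 in the other sham arrays. Choroid plexus markers had 6 members tested and none called, their level was 1.41 in sham replicate 2, and Ttr and Kcne2 differed by -0.32 and -0.45. The part of meningeal, blood or choroid plexus RNA in the acute phase and matrix results was not tested.

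Cell proliferation genes lay 0.62 above all tested genes, with 15 of 17 members above that median and none called. Among all tested genes 0.658% were called higher and 19.4% lower by the median. Cdk1, the mitotic kinase, was at 0.55, 2.78, 1.35 and 3.17 in sham arrays, and Mcm6, a subunit of the replication helicase, at 0.63, 1.55, 0.96 and 2.45. In both genes sham replicates 2 and 4 were again the highest, and the differences of 1.00 and 0.86 did not pass, nor did those of the mitotic cyclins Ccnb1 and Ccnb2, at 0.54 and 0.34.

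**Figure D3:**
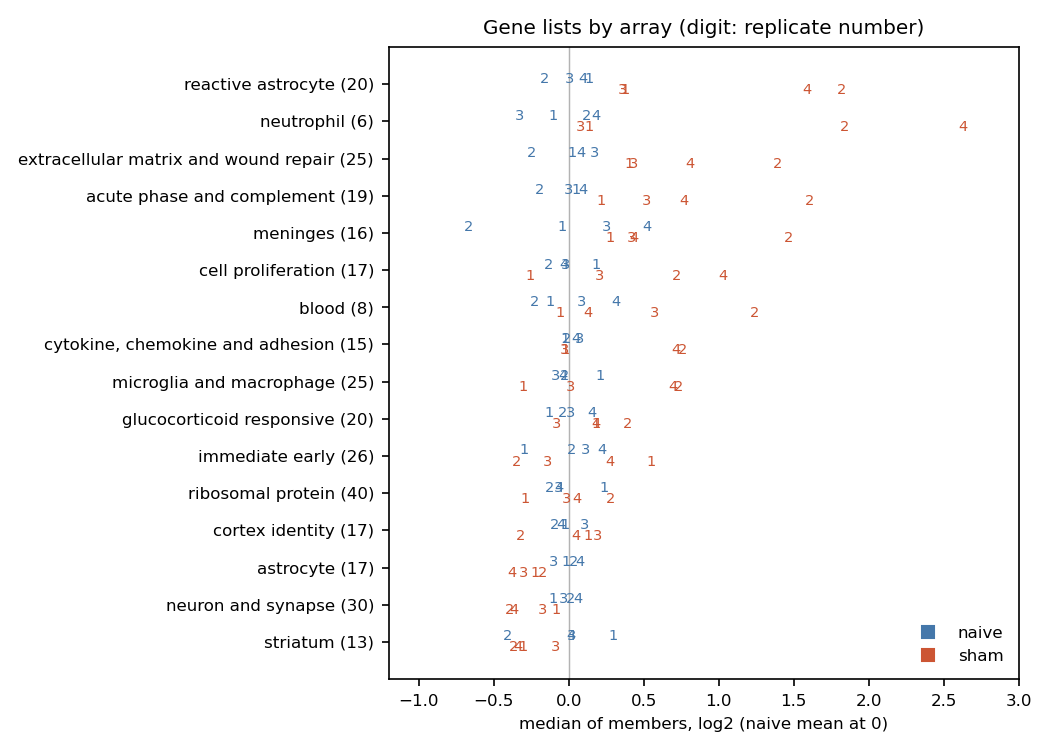
Level of 16 gene lists per array, as the median over tested members (number in brackets) on the log2 scale after 75th percentile scaling with the naive mean of each gene at 0 (x axis), where each digit is the replicate number of a naive (blue) or sham (orange) array. Sham replicates 2 and 4 stand to the right of all other arrays in the reactive astrocyte, neutrophil, cytokine and cell proliferation lists, and sham replicate 2 alone does so in the meningeal and blood lists.

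The genes with the largest falls in sham cortex included several of synapses, with measured differences down to -1.32. Glra2, which encodes the alpha-2 subunit of the glycine receptor, was at 7.75, 7.88, 7.82 and 8.27 in naive arrays and at 6.92, 6.54, 6.58 and 6.39 in sham arrays, so that it fell by 1.32 on the log2 scale (SE 0.22). A second probe of Glra2 differed by 0.26 ± 0.35 the other way, with an adjusted p of 0.62, so the 2 probes of the gene disagree. Shank1 and Erc2, scaffold proteins of the postsynapse and of the presynaptic active zone, fell by 1.21 and 1.16, and 2 further probes of Shank1 fell by 0.78 and 0.69.

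Map2, the microtubule protein of dendrites, was at 3.56 ± 0.04 (SD, n = 4) in sham arrays and at 4.25 to 4.77 in naive arrays, a fall with an adjusted p of 0.00698 by the median and 0.0449 by the 75th percentile. Mapre3, a protein of growing microtubule ends, fell by 1.06 (SE 0.15), and Prkce, the epsilon isoform of protein kinase C, by 1.09 (SE 0.20). Ppp1r1b, the dopamine-regulated phosphatase inhibitor that is abundant in striatum, stood at 7.51 to 7.87 in naive and 6.42 to 6.87 in sham arrays. Other genes among the 15 largest falls were Krtap10-10l2, Leng8, Pax5, Hpn, Nek8, Cym, Crybb1, Apoc1 and Vwa5b2, the last with a difference of -1.06. Of these, Pax5 is a B cell transcription factor, Hpn and Cym encode proteases, Crybb1 a lens crystallin that microglia also make and Apoc1 an apolipoprotein of glia. Krtap10-10l2 was above background in all naive and no sham array, a ratio of at least 2.33-fold, and the second probe of Nek8 fell by 0.34 without passing.

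**Figure D4:**
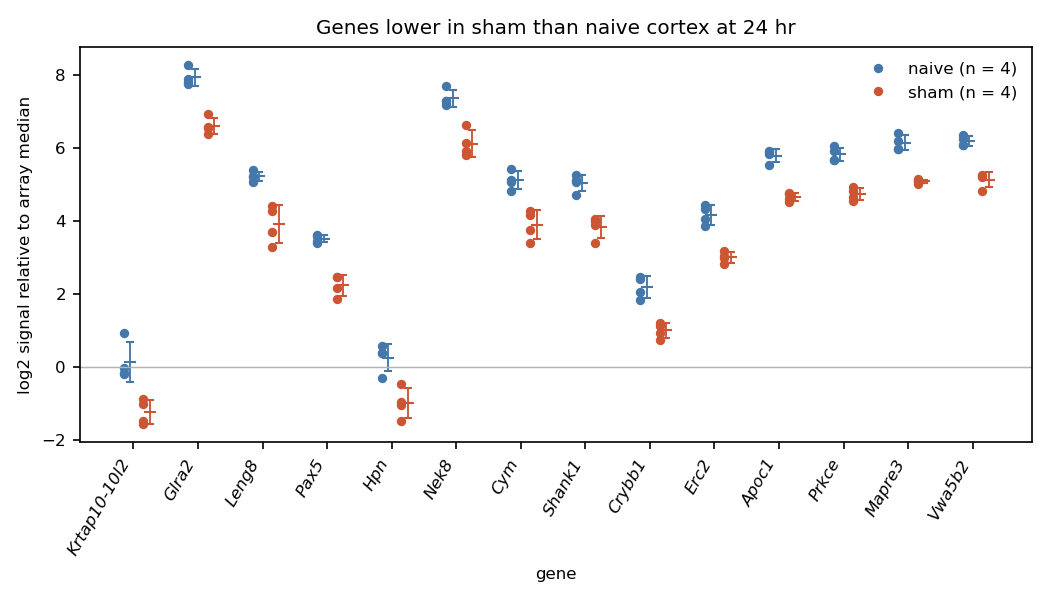
Log2 signal relative to the array median (y axis) of 14 genes of largest fall among those called by both scalings with groups that do not overlap (x axis), for 4 naive (blue) and 4 sham (orange) arrays, with mean and SD beside the points. For Glra2 the naive arrays lie between 7.75 and 8.27 and the sham arrays between 6.39 and 6.92.

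Neuron and synapse genes were lower by the median in 11 of 30 tested members (19.4% of all tested genes were called lower) and in 1, Map2, by both scalings, and 7 of 30 lay above the median of all tested genes. The list as a whole lay -0.22 from that median. Its level per array was -0.08, -0.39, -0.17 and -0.37 in sham replicates 1 to 4 and ran from -0.10 to 0.06 in naive arrays. Syn1, Dlg4, Grin1 and Nrgn, which encode a vesicle protein, a postsynaptic scaffold, an NMDA receptor subunit and a calmodulin-binding protein of dendrites, fell by 0.60, 0.67, 0.66 and 0.65 by the median and were not called by the 75th percentile. Without a single array, Syn1 and Dlg4 kept their calls in 4 of 8 fits and Nrgn in 2. Astrocyte genes of the resting state went the same way, with 8 of 17 lower by the median, 0 by the 75th percentile, and a median of -0.21 relative to all tested genes. Aldh1l1, a folate enzyme that marks astrocytes, fell by 0.84 ± 0.17, S100b by 0.59 ± 0.12 and the glycolytic enzyme Aldoc by 0.51 ± 0.13. Aqp4 at a difference of -0.07 and Slc1a2 at -0.42 showed that the list is not uniform, and only the latter passed by the median, in 1 of the 8 fits without a single array (Aldoc in 4).

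Of 26 tested GABA receptor and anaesthetic target genes 7 were lower by the median (19.4% of all tested genes were) and 1, Glra2, whose second probe differed the other way, by both scalings, 0 were higher, and their median was -0.07 from that of all tested genes. Gabrd, the delta subunit of extrasynaptic GABA receptors, fell by 0.75 ± 0.22, Hcn2, a pacemaker channel, by 0.80 ± 0.20, and the nicotinic subunit Chrna4 by 0.48 ± 0.11, all by the median alone. Gabrd kept its call in 1 and Hcn2 in 5 of the 8 fits without a single array. The potassium channel gene Kcnc1 fell by 0.71 ± 0.17 on the same terms. Inhibitory interneuron genes had 2 of 19 lower by the median and 0 by the 75th percentile, with Gad1 at -0.22 and Gad2 at -0.03.

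Stress and activity genes showed no call in either direction. Among all tested genes 0.658% were called higher and 19.4% lower by the median, and 0.334% and 1.1% by both scalings. With so few genes called higher at all, none in a short list is near that share. None of 20 tested glucocorticoid responsive genes was called, and the list lay 0.21 above all tested genes. Fkbp5, the receptor's own chaperone, differed by -0.03 ± 0.16, Tsc22d3 by -0.11 ± 0.16 and Sgk1, a kinase induced by corticosteroids, by 0.33 ± 0.23. Cebpd, a transcription factor that answers to glucocorticoids and cytokines alike, was at 6.04 and 5.92 in sham replicates 2 and 4, at 4.17 in replicate 1, and between 3.96 and 4.21 in naive arrays. None of 26 immediate early genes was called, with a list median of 0.14 above all tested genes, Fos at 0.37 ± 0.34 and Fosb at -0.35 ± 0.26. A p that misses the threshold with 4 arrays a group does not show that these genes were equal.

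Circadian clock genes had 5 of 17 tested members lower by the median and 0 by the 75th percentile, near the 19.4% of all genes. Nr1d1, the clock repressor REV-ERB-alpha, was at 4.64 to 4.91 in naive and 3.84 to 4.26 in sham arrays, and Dbp, an output of the clock, fell by 0.73 ± 0.23 by the median, a call it kept in 1 of the 8 fits without a single array. Per1 at -0.47 and Per2 at 0.08 were not called. Heat shock and chaperone genes had 1 of 18 higher, Hspb1, and 3 lower by the median, and Hspa1a and Hspa8 differed by -0.15 and -0.22.

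Remaining lists held few calls. By the median 0.658% of all tested genes were called higher and 19.4% lower, and by both scalings 0.334% and 1.1%. Hypoxia and angiogenesis genes had 1 member of 19 called higher by both scalings, Angpt2, and a median of 0.12 relative to all tested genes. Striatal genes lay -0.25 from that median, with 2 of 13 lower by the median scaling, 1 by both (Ppp1r1b), and Pde10a, a striatal phosphodiesterase, fell by 0.95 ± 0.22 by the median. Endothelial, pericyte and smooth muscle, oligodendrocyte, oligodendrocyte precursor, mitochondrial and ribosomal lists had no member called by the 75th percentile, and by the median 2 of 18, 0 of 13, 0 of 19, 1 of 9, 5 of 39 and 1 of 40 lower. These shares were all below that of all tested genes called lower by the median. Medians of these lists lay between -0.13 and 0.12 of that of all tested genes. The junction protein gene Cldn5 and Pecam1 of endothelium differed by -0.37 and -0.03, Pdgfrb and Rgs5 of pericytes by -0.16 and -0.23, the myelin gene Mbp by -0.32, and Pdgfra and Cspg4 of precursors by -0.13 and -0.09. Ndufa1 and Ndufa2 of the respiratory chain differed by -0.21 and -0.11, and Rpl3 and Rpl4 of the ribosome by -0.24 and -0.10. None of these 11 genes was called by either scaling on its brightest probe, though a second probe of Mbp fell by 0.69 ± 0.21 by the median (adjusted p = 0.0409). Thalamic, hippocampal and cortical identity genes had none called in 8, 9 and 17 tested, at medians of 0.03, 0.03 and -0.01. Prkcd and Lef1 of the thalamus differed by -0.25 and -0.28, Prox1 and Wfs1 of the hippocampus by 0.00 and 0.18, and the cortical layer genes Cux2 and Rorb by -0.62 and -0.06.

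The effect of sham surgery at 24 hr was also set against that at 2 weeks and 6 months, with the difference of the differences tested in limma over 16 arrays each. Against 2 weeks no probe of 24160 passed by either scaling (130 at an unadjusted p under 0.05 by the median and 1191 by the 75th percentile). Sham replicate 3 of 2 weeks stands apart, with 93.0% of its probes well above background, and 8 probes passed without it. Naive replicate 4 of 2 weeks was unusual as well. Its 75th percentile lay 2.20 above its median, against 3.27 to 3.72 in the other naive arrays of 2 weeks, and 0 probes passed without it. Against 6 months 1306 of 24136 probes passed by the median, 34 with a higher effect at 24 hr (0.141%) and 1272 with a lower effect (5.27%). By the 75th percentile 241 passed, 36 higher (0.149%) and 205 lower (0.849%), and by both 15 higher (0.0621%) and 205 lower. Without sham replicate 4 of 24 hr, 430 probes passed by the median.

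Serpina3n had a higher effect at 24 hr (adjusted p = 0.00794), of a size that was not measured because no naive array of 24 hr was above background for it. At 6 months it was at -1.68, -1.04, -1.60 and -2.63 in naive and -2.47, -3.12, -3.52 and -2.09 in sham arrays, where it was above background in 2 naive and 0 sham arrays. Kng1, Kng2l1 and Kng2 passed in the same direction (adjusted p = 0.0129, 0.0112 and 0.016), were below background in all naive arrays of 24 hr and above it in at most 1 of 8 arrays at 6 months, so that their sizes were not measured either. Zfp59, a zinc finger gene, had a difference of 1.26, made of 0.71 at 24 hr and -0.55 at 6 months.

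Lower effects at 24 hr than at 6 months were led by Anp32a, a phosphatase inhibitor, with a difference of -1.50. It rests on 6 months more than on 24 hr, with sham minus naive at 1.24 and -0.26. Crybb1, Glra2 and Ppfia3, a presynaptic scaffold, had differences of -1.42, -1.30 and -1.25. In these 3 genes the sham and naive arrays overlapped at 6 months, where Glra2 was at 7.07 to 7.86 in naive and 7.15 to 7.82 in sham arrays. Arrays of the intervals lay on different slides, so slide and interval cannot be told apart.

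**Figure D5:**
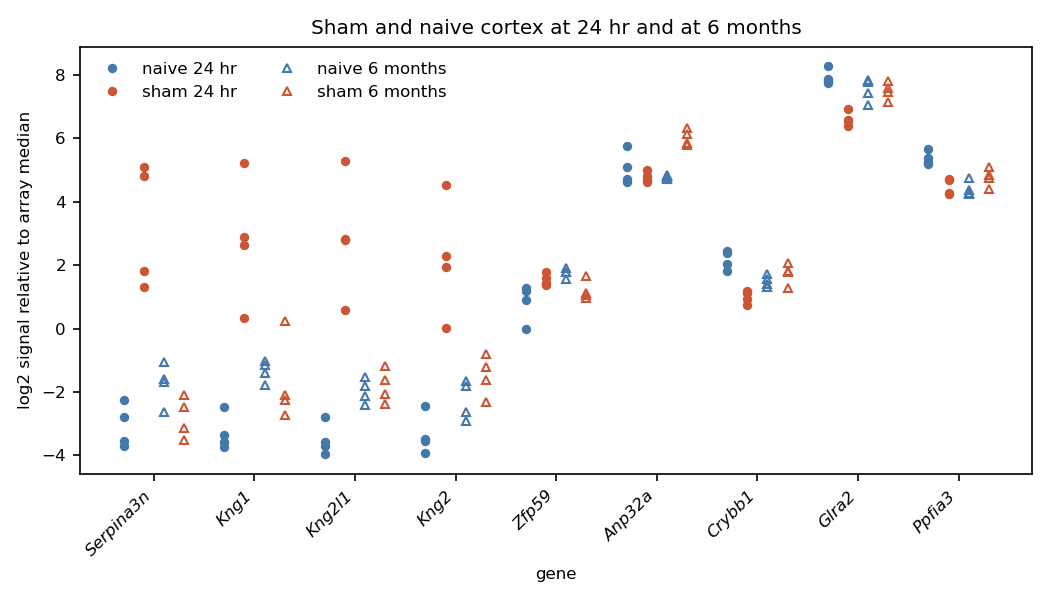
Log2 signal relative to the array median (y axis) of 9 genes with large differences in sham effect between 24 hr and 6 months (x axis), for naive (blue) and sham (orange) arrays at 24 hr (filled circles) and 6 months (open triangles), 4 arrays each. Serpina3n is at 1.32 to 5.11 in sham arrays at 24 hr and at -3.52 to -2.09 at 6 months, and Anp32a is high in sham arrays at 6 months only. Serpina3n and the kininogen genes were not above background in any naive array of 24 hr.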

How the data were processed

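The authors deposited, for each array, spot intensities that Agilent Feature Extraction produced; their processed signal was background-subtracted and detrended but not normalized between arrays, together with a table of linear intensities rescaled per array. Flagged outlier spots were left out, spots of a probe were averaged on the log2 scale, and each array was centred on its median over 45598 probes, controls excluded, as the study's methods name the median, with the 75th percentile beside it. Deposited RefSeq identifiers joined to a RefSeq gene table named 46.3% of probes (16581 genes), and each gene is represented by its brightest probe, on average, in the naive and sham arrays. A probe was tested if all 4 arrays of either group compared flagged it as well above background. Limma 3.58.1 in R 4.3.3 (lmFit, contrasts.fit, eBayes) was fitted to the 12 naive, sham and TBI arrays of 24 hr, or to 16 arrays for differences between intervals, without a block, with Benjamini-Hochberg adjustment over all tested probes. Values after ± are SE unless SD is named. The script was tested on simulated data. Named genes were the 15 largest rises and 15 largest falls called by both scalings with groups that do not overlap, up to 4 called members of each of 31 lists or else the first 2 tested members, and up to 5 genes per direction for each interval difference; genes among them that are not reported here were not replaced. The members and lists were chosen with earlier results of these data known. Nothing in the labels ties naive to sham rats, and the methods call the 4 samples of a group biological replicates. Precision is limited by the number of arrays.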

Additional observations from a re-analysis of the deposited data

Results flagged for a closer look

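The sham effect differed between 24 hr and 6 months at 1306 probes by the median scaling in limma. Among genes called by both scalings the effect was higher at 24 hr for Serpina3n, Kng1, Kng2l1 and Kng2 (adjusted p = 0.00794, 0.0129, 0.0112 and 0.016 by the median), whose signal was below background in every naive array of 24 hr, so that no size is given. The difference, 24 hr minus 6 months on the log2 scale, was 1.26 for Zfp59. It was -1.50 for Anp32a, -1.42 for Crybb1, -1.30 for Glra2 and -1.25 for Ppfia3.

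In 12 of 258 groups of 4 arrays, those of the named genes, a single array lay far from the other 3, where chance alone gives about 1 in 20. Relative to the array median, naive replicate 1 was at 0.93 for Krtap10-10l2, at 6.80 for Aif1 and at 1.71 for Cdk1. Naive replicate 2 was at 3.54 for Slc6a20a, and naive replicate 3 was at 5.004 for Wfs1, -1.15 for Ccl7 and 10.90 for Aldoc. Naive replicate 4 was at 2.36 for Lum, a meningeal proteoglycan, and at 0.71 for Hba-a3, a haemoglobin chain whose other naive arrays were at 5.08, 5.57 and 5.93. Sham replicate 2 was at 4.83 for Vwa5b2, sham replicate 3 at 10.13 for S100b and sham replicate 4 at 4.71 for Rgs5.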

How the results depend on the processing

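The count of probes that differ between sham and naive depends first on the scaling. Against 4584 by the median, 414 were called by the 75th percentile, 350 by the median of probes detected in all arrays, 402 by quantile normalization and 437 with the authors' values, of which 39.1%, 44.6%, 23.6% and 38.7% were higher in sham against 4.95% by the median. Without a filter 927 were called. Normexp, run on the median spot signal because mean spot signals were not used here, gave 3614. Leaving out single arrays gave 2051 to 3671 by the median, lowest without naive replicate 3, with naive replicates 2 and 4 (2737 and 2449) and sham replicates 2 and 4 (2599 and 2331) also moving it by over 1.5 times. Settings chosen after seeing the data were combined with the 75th percentile, which gave 3, 7, 1 and 0 without naive replicates 1 to 4, 46, 5, 12 and 0 without sham replicates 1 to 4, 1228 with the naive and sham arrays alone and 0 with a replicate block (5671 at an unadjusted p under 0.05). Without sham replicates 2 and 4 the counts were 66 and 32. The difference between 24 hr and 6 months, 1306 probes by the median, was 241, 219, 177 and 224 under the same 4 scalings, 519 with normexp, 1 without a filter, and 430 to 1841 without single arrays. That between 24 hr and 2 weeks stayed at 0 except for 8 without sham replicate 3 of 2 weeks, so 0 to 8 without single arrays.

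Equal replicate numbers did not pair the rats: the deviations of same-numbered arrays correlated at -0.10, -0.22, 0.10 and -0.06. With the replicate block 3892 probes were called at 24 hr, 0 in the difference from 2 weeks and 985 in that from 6 months. Of 69 named genes called by the median none changed direction under any alternative. The number that kept their call was 34 by the 75th percentile, 30 by the median of probes detected in all arrays, 25 by quantile normalization, 35 with the authors' values, 62 with normexp, 31 without a filter, 59 with the replicate block and 42 to 65 without single arrays (42 without sham replicate 4, 46 without naive replicate 3).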
